A study of Mus musculus with 6 samples.

Results

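The EGF receptor family and its ligands were followed here across 6 RNA-seq libraries of 4T1 cells, a transplantable mouse mammary tumour line, with and without Carmil3, a gene of the CARMIL family of actin capping protein regulators. The genes are the receptor genes Egfr, Erbb2 and Erbb3 and the ligand genes Areg, Ereg, Hbegf, Btc, Tgfa and Epgn, chosen by symbol. All 9 were found among the 23644 genes of the deposited table. There were 3 control libraries, whose cells are labelled wild type for Carmil3, and 3 Carmil3 knockout libraries. Per the labels both kinds of cell were kept in plates in serum-containing medium with antibiotics, and the knockout cells were clones grown from single cells. The sources used here give neither the method of the knockout nor the number of clones sequenced, so the knockout and the choice of clone cannot be told apart. The labels do not say whether replicate libraries stem from separate cultures, and if they do not, p-values measure technical spread only. Values are FPKM, which are scaled by exon length and by sequencing depth.

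Receptors of this family are tyrosine kinases that signal as pairs. EGFR binds amphiregulin, epiregulin, HB-EGF, betacellulin, TGF-alpha and epigen, the products of the ligand genes listed above. ERBB2 has no known soluble ligand and serves as the preferred partner of the others, and ERBB3, whose own kinase is weak, binds neuregulins and couples strongly to PI3 kinase. The ligands are made as membrane-anchored precursors and are released by ADAM proteases, and in the mammary gland amphiregulin is known for its role in duct growth.

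The read totals by which the FPKM were scaled, worked out from the spacing between values, were between 17779104 and 19046746. The recovered reads over all listed genes summed to between 108.7% and 109.1% of these totals, so the totals are scaling factors and not exact sequencing depths. Carmil3 itself was at or below 0.0360 FPKM in every library: the control values were 0.0360, 0.0246 and 0.0117, and the knockout values were 0, 0.0118 and 0.0241. The groups overlapped, and at these levels the transcript does not check the labels. On the first principal component the groups stood apart, and on the second, with 11.8% of the variance, knockout replicate 3 lay at -15.5 and the other 5 libraries between -3.11 and 9.56. Of the 7 epithelial markers measured, Krt8, Krt18 and Krt19 were called lower, where 18.7% of all genes tested were called lower. The other 4 were tested through their control libraries alone, so their calls are not used as support. The summed level of the 7 was between 1013 and 1107 FPKM in control and between 428 and 473 FPKM in knockout libraries. Of these markers Krt14 was listed at 0 in 2 knockout libraries and Epcam was at most 0.132 FPKM in all 3. Endothelial and adipocyte markers were below 0.1 FPKM in every library. Of 5 leukocyte markers measured 4 were below 0.5 FPKM throughout, and Cd68 was at most 3.40 FPKM. The 4 fibroblast markers measured summed to between 11.4 and 12.01 FPKM in control and between 17.8 and 18.3 FPKM in knockout libraries. Nearly all of that sum was Pdgfra, a PDGF receptor gene, which averaged 10.1 ± 0.135 FPKM in control and 17.6 ± 0.272 FPKM in knockout libraries. Col1a1, a collagen gene, moved the other way, from 1.501 ± 0.209 to 0.271 ± 0.0230 FPKM (SD, n = 3 for each). In these sums fewer cells of a type and less RNA per cell cannot be told apart. The part of these markers in the results on the EGF family was not tested.

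In the control cells the ligand genes Hbegf, Tgfa and Areg and the receptor gene Erbb2 carried nearly all of the family's transcripts. Hbegf, which encodes the heparin-binding ligand, was highest at 26.0 ± 1.22 FPKM (SD, n = 3), above 91.2% of the listed genes. Tgfa followed at 13.9 ± 0.459 FPKM, Areg at 13.3 ± 0.0622 FPKM and Erbb2 at 9.89 ± 0.560 FPKM (SD, n = 3 for each). The ranges of these 4 genes did not overlap in either group. Erbb3 at 1.05 ± 0.0778 FPKM and Egfr at 0.919 ± 0.101 FPKM (SD, n = 3) overlapped each other. Epgn at 0.242 ± 0.0772 FPKM and Btc at 0.178 ± 0.0217 FPKM (SD, n = 3) also overlapped each other. Ereg was at the lower limit of the measurement. In the knockout cells the order of the 4 highest genes was the same, and the range of Epgn overlapped those of Egfr and Erbb3.

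In the knockout cells 2 ligand genes rose, and the transcripts of 2 receptor genes and 1 ligand gene that were already low in control cells were lower. Tgfa and Areg passed the test of the whole table, limma on log2(FPKM + 1) with Benjamini-Hochberg adjustment over 11171 genes and a threshold of 0.05. That test covered the 4 members with at least 1 FPKM in at least 3 libraries, namely Erbb2, Areg, Hbegf and Tgfa. Of these 4 members 2 rose and 0 fell, where 16.9% of all genes tested rose and 18.7% fell. The other 5 members, Egfr, Erbb3, Btc, Epgn and Ereg, did not reach that filter. Egfr reached 1 FPKM in 0 control libraries and Erbb3 in 2. They are described by their values, by the recovered reads and by alternative fits that include them. For 7 of the 9 members control and knockout values did not overlap, 3 of them higher and 4 lower in knockout cells. Of all listed genes 31.8% had groups that did not overlap, 14.7% higher and 17% lower in knockout cells, and of the genes tested 50.5%, 24.2% higher and 26.4% lower.

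**Figure D1:**
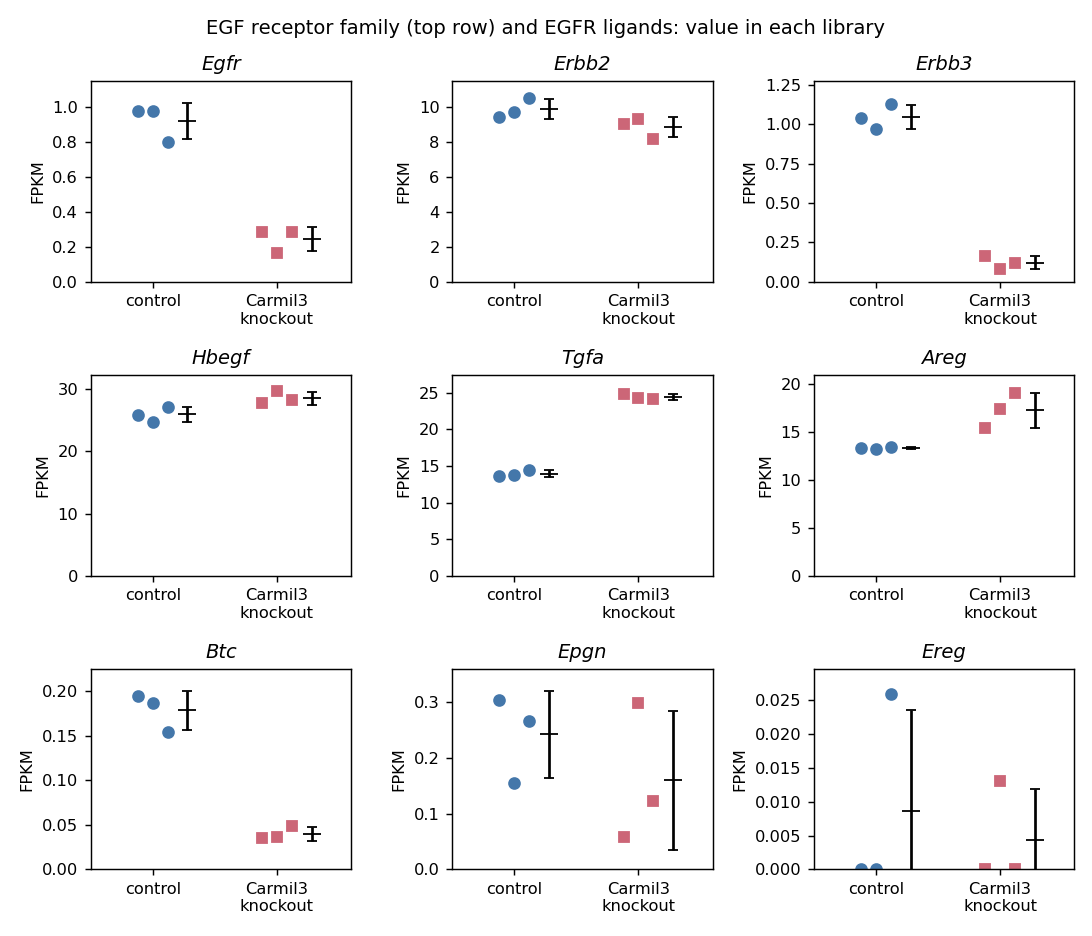
Value of each of the 9 genes in FPKM (vertical axis, from 0) in the 3 control libraries (circles) and the 3 Carmil3 knockout libraries (squares), with the mean and SD of each group as a bar beside the points. Egfr, Erbb3 and Btc lie lower in all 3 knockout libraries, Tgfa and Areg lie higher, and the groups overlap for Epgn and Ereg.

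Among the receptors, Egfr and Erbb3 transcripts were several-fold lower in knockout cells, and Erbb2 did not pass the test. Egfr, the receptor for all 6 ligands listed, lies on chromosome 11 (16752203 to 16918158, plus strand, GRCm38, ENSMUSG00000020122). It measured 0.976, 0.978 and 0.802 FPKM in the control libraries (replicates 1, 2 and 3, an order kept below) and 0.287, 0.167 and 0.282 FPKM in the knockout libraries. Every knockout library was below every control library, and knockout replicate 2 was the lowest. The means were 0.919 ± 0.101 and 0.246 ± 0.0681 FPKM (SD, n = 3), a ratio of control to knockout of 3.74. With the annotated exon length of 11326 bases these values are whole numbers of reads, 201, 197 and 170 in control and 62, 35 and 58 in knockout libraries. The read rate was 3.73 times higher in control cells, with an exact 95% interval of 3.12 to 4.49 that covers counting error only. With limma-voom on the recovered reads the log2 change of Egfr was -1.93 ± 0.20 (SE), with a Benjamini-Hochberg adjusted p of 3.59e-06 over 13102 genes. In that fit 37.6% of all genes were called, 17.6% higher and 20% lower in knockout cells.

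Erbb3, the neuregulin-binding receptor gene, lies on chromosome 10 (128567523 to 128589652, minus strand, GRCm38, ENSMUSG00000018166). It measured 1.04, 0.972 and 1.13 FPKM in the control libraries and 0.166, 0.0808 and 0.119 FPKM in the knockout libraries. The groups lay far apart, and the highest knockout library was below the lowest control library. The reads were 114, 104 and 127 in control and 19, 9 and 13 in knockout libraries. The means of 1.05 ± 0.0778 and 0.122 ± 0.0426 FPKM (SD, n = 3) gave a ratio of control to knockout of 8.59, and the exact 95% interval of the read rate ratio was 6.19 to 12.2. The log2 change of Erbb3 was -3.11 ± 0.27 (SE) with limma-voom on the recovered reads, with a Benjamini-Hochberg adjusted p of 7.63e-07. With each library left out in turn, a check added after the data were seen, this change lay between -3.36 and -2.86 for Erbb3 and between -2.07 and -1.68 for Egfr. Both genes passed the test each time.

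limma on log2(FPKM + 1) without the filter also called both receptors lower, with adjusted p = 0.00462 for Egfr and 0.000786 for Erbb3. In that fit 14.4% of 23644 genes were called, 6.5% higher and 7.88% lower. The changes on this scale were -0.62 for Egfr and -0.87 for Erbb3, because adding 1 to values below 1 FPKM understates a change. Exact permutation tests of the 3 against 3 values gave p = 0.1 for each, the smallest p that this design allows.

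Erbb2, the partner receptor without a soluble ligand of its own, lies on chromosome 11 (98412470 to 98437716, plus strand, GRCm38, ENSMUSG00000062312). It measured 9.45, 9.71 and 10.5 FPKM in control and 9.05, 9.31 and 8.19 FPKM in knockout libraries. The groups did not overlap, but the gap between them was small: the highest knockout library, replicate 2, was just below control replicate 1. The means were 9.89 ± 0.560 and 8.85 ± 0.588 FPKM (SD, n = 3). The log2 change was -0.15 ± 0.07 (SE) and did not pass the test, with limma's Benjamini-Hochberg adjusted p at 0.128. The read rate ratio of knockout to control was 0.895, with an exact 95% interval of 0.848 to 0.944 for counting error only.

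Together these values moved the receptor transcripts further towards Erbb2. Of the summed FPKM of the 3 receptor genes, Erbb2 made up 83.4% ± 1.06 in control and 96.0% ± 1.23 in knockout cells (SD, n = 3). Egfr went from a share of 7.78% ± 1.16 to one of 2.69% ± 0.824, and that of Erbb3 was 8.83% ± 0.423 and 1.33% ± 0.453 (SD, n = 3). For each of the 3 receptor genes the shares of the groups did not overlap. The summed level of the receptors was 11.9 ± 0.522 FPKM in control cells, against 9.22 ± 0.544 FPKM in the knockout (SD, n = 3).

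**Figure D2:**
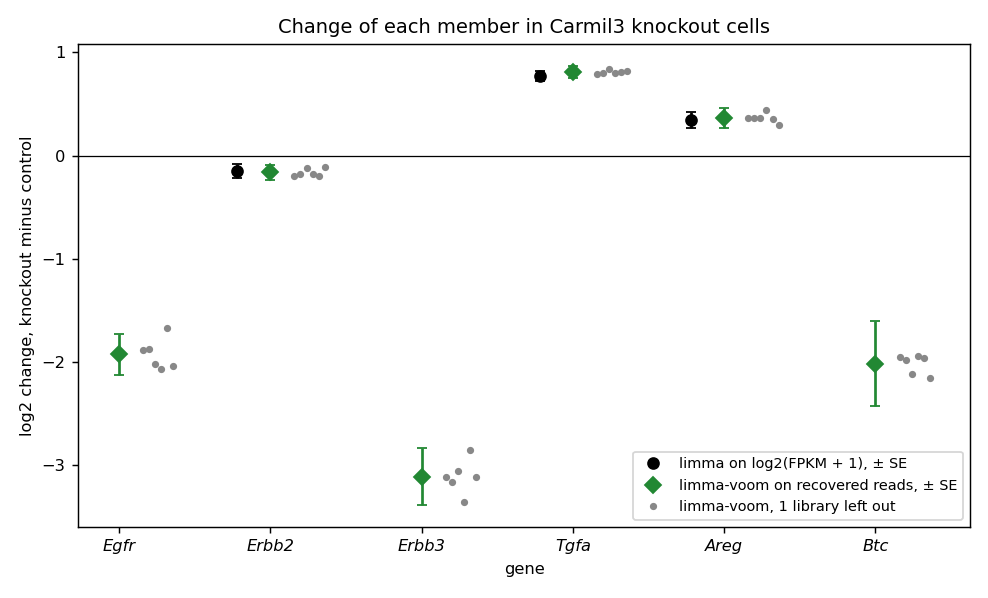
Log2 change, knockout minus control (vertical axis), of 6 of the genes. Black circles are limma on log2(FPKM + 1) for the members that passed its filter, diamonds are limma-voom on recovered reads, bars are SE, and small points are limma-voom with 1 library left out. Erbb3 lies near -3.11, Egfr near -1.93 and Tgfa near 0.81 in limma-voom; Btc passed the read minimum through its control libraries only.

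Tgfa, which encodes TGF-alpha, had the largest change of the 3 tested ligand genes. It lies on chromosome 6 (86195223 to 86275719, plus strand, GRCm38, ENSMUSG00000029999). It measured 13.6, 13.7 and 14.5 FPKM in control and 24.9, 24.2 and 24.2 FPKM in knockout libraries. The 3 knockout libraries lay close together, and all were well above the highest control library. The means were 13.9 ± 0.459 and 24.4 ± 0.371 FPKM (SD, n = 3), a ratio of knockout to control of 1.75. The log2 change was 0.77 ± 0.05 (SE), and limma's Benjamini-Hochberg adjusted p was 1.15e-05. The recovered reads, 1607, 1582 and 1756 in control against 3073, 2912 and 2848 in knockout libraries, gave a read rate ratio of 1.75 with an exact 95% interval of 1.69 to 1.82. Its neighbours on chromosome 6 also moved. Of the 40 tested genes nearest to Tgfa 20 rose and 0 fell, with a median log2 change of 0.20. Over all genes tested 16.9% rose and 18.7% fell. After subtraction of the neighbours' median the log2 change of Tgfa was 0.54, with an adjusted p of 0.000154 by limma. Tested against a 1.5-fold change, Tgfa did not pass (adjusted p = 0.1004, limma).

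Areg, which encodes amphiregulin, also rose. It lies on chromosome 5 (91139599 to 91148432, plus strand, GRCm38, ENSMUSG00000029378). It measured 13.4, 13.3 and 13.4 FPKM in control and 15.4, 17.4 and 19.1 FPKM in knockout libraries. The control libraries were nearly equal, and the knockout libraries were spread out above them. The means were 13.3 ± 0.0622 and 17.3 ± 1.84 FPKM (SD, n = 3), a ratio of knockout to control of 1.30. The log2 change was 0.35 ± 0.08 (SE), and limma's Benjamini-Hochberg adjusted p was 0.00795. The reads were 295, 287 and 305 in control and 357, 391 and 421 in knockout libraries, a read rate ratio of 1.29 with an exact 95% interval of 1.18 to 1.41. Areg did not pass when tested against a 1.5-fold change (adjusted p = 1, limma). The ratio of Areg to Tgfa was 0.959 ± 0.0278 in control and 0.709 ± 0.0848 in knockout cells (SD, n = 3), and the groups did not overlap.

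Hbegf was the highest ligand gene in both groups and did not pass the test. It lies on chromosome 18 (36504927 to 36515805, minus strand, GRCm38, ENSMUSG00000024486). It measured 25.9, 24.8 and 27.2 FPKM in control and 27.7, 29.7 and 28.2 FPKM in knockout libraries. The groups did not overlap, but the lowest knockout library was only slightly above the highest control library. The means were 26.0 ± 1.22 and 28.6 ± 1.02 FPKM (SD, n = 3), and the log2 change was 0.13 ± 0.06 (SE) with limma's Benjamini-Hochberg adjusted p at 0.0979. Its neighbours were lower, with 15 of 40 fallen and 2 risen and a median of -0.18. Over all genes tested 18.7% fell and 16.9% rose. After subtraction of the neighbours' median Hbegf was called higher, with a log2 change of 0.28 and adjusted p = 0.0061 by limma. Its values did not come out as whole reads with the annotated exon length, so no reads are given for it.

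Btc, Epgn and Ereg were the low ligand genes. Btc, which encodes betacellulin, a ligand of EGFR and ERBB4, measured 0.195, 0.187 and 0.154 FPKM in control and 0.0348, 0.0359 and 0.0488 FPKM in knockout libraries. These correspond to 16, 15 and 13 reads in control and to 3, 3 and 4 reads in knockout libraries, so the groups did not overlap although every count was small. The read rate was 4.48 times higher in control cells, with an exact 95% interval of 2.22 to 9.99. limma without the filter called Btc lower with a Benjamini-Hochberg adjusted p of 0.0405. limma-voom gave a log2 change of -2.02 ± 0.41 (SE), but Btc entered that fit only through its control libraries, which alone reached 10 reads, so that fit is not used as support.

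Epgn, which encodes epigen, measured 0.304, 0.156 and 0.266 FPKM in control and 0.0581, 0.299 and 0.122 FPKM in knockout libraries. The groups overlapped, with 5 to 10 reads in control and 2 to 10 reads in knockout libraries, and p was 0.3 by a two-sided exact permutation test. Ereg, which encodes epiregulin, had 0 reads in 4 libraries, 2 reads in control replicate 3 and 1 read in knockout replicate 2. A count of 0 allows up to 3 reads, which for Ereg is between 0.0382 and 0.0409 FPKM per library. A difference in Ereg was therefore not detectable at this depth.

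The summed FPKM of the 6 ligand genes was 53.7 ± 1.73 in control and 70.5 ± 2.06 in knockout cells (SD, n = 3), and the groups did not overlap. Hbegf made up 48.4% ± 0.759 of this sum in control and 40.5% ± 1.04 in knockout cells, and Tgfa made up 25.9% ± 0.412 and 34.7% ± 1.56 (SD, n = 3). The share of Areg was 24.9% ± 0.681 and 24.5% ± 2.01 (SD, n = 3) and overlapped between the groups. Higher ligand sums stood beside lower receptor sums in each of the 3 knockout libraries.

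**Figure D3:**
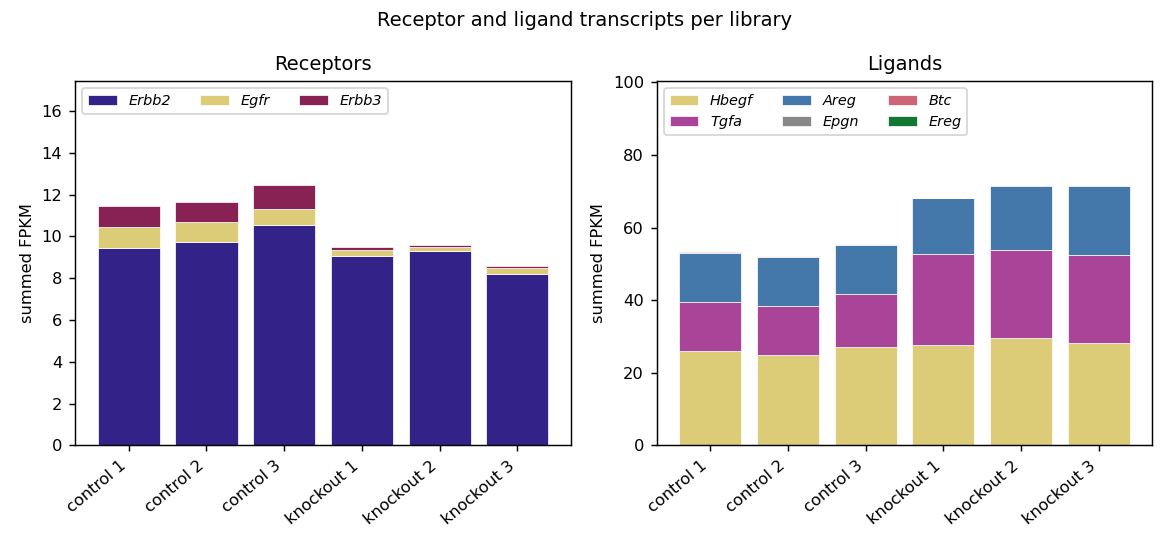
Summed FPKM (vertical axis, from 0) of the 3 receptor genes (left) and the 6 ligand genes (right) in each of the 6 libraries, with each gene as a segment. The receptor sum is lower in the knockout libraries and almost all Erbb2, and the ligand sum is higher through the Tgfa and Areg segments most of all.

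Promoter windows of Tgfa, Areg and Egfr are shown because Tgfa and Areg are the members that were called and Egfr encodes the receptor of both. Windows were taken from the RefSeq table (GRCm38.p6) for 6 of the 9 members. Erbb3, Ereg and Hbegf, the highest ligand gene, were not among them, and their promoters were not searched. Each is the 250 bases before the annotated start, 5′ to 3′ on the gene's strand, at chr6:86194972-86195221, chr5:91139349-91139598 and chr11:16751953-16752202. Capitals mark matches, on either strand, to the motifs searched, which are the cyclic AMP response element TGACGTCA, the AP-1 site TGANTCA, the GC box GGGCGG, the E-box CAGGTG, the TEAD site CATTCC and the TATA box TATAAA.
Tgfa: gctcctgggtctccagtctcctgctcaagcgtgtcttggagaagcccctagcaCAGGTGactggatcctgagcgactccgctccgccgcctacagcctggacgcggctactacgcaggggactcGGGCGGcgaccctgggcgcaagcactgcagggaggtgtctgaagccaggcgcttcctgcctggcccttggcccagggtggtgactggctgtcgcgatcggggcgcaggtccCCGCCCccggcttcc
Areg: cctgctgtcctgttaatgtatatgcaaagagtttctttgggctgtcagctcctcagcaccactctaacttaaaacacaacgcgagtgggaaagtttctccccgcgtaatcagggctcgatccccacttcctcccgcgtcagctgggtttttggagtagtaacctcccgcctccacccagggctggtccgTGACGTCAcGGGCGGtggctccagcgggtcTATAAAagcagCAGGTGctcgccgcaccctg
Egfr: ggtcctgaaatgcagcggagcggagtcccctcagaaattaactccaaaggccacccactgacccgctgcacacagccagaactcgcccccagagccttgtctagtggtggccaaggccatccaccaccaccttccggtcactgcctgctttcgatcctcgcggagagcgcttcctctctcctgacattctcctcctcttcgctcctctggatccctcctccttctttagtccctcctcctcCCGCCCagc
Areg held a cyclic AMP response element at position -61 from the start, followed by a GC box at -52, a TATA box at -31 and an E-box at -20. The cyclic AMP response element was found in 1.55% of 32817 windows of the same length, the TATA box in 12.4%, the GC box in 32.7% and this E-box in 17.2%. Tgfa held GC boxes at -126 and -15 and an E-box at -197, and no TATA box in this window. Egfr held 1 GC box, at -9. No AP-1 or TEAD site, motifs found in 6.75% and 12.6% of all windows, matched in these 3 windows. The windows of Tgfa, Areg and Egfr had a GC content of 69.2%, 57.2% and 60.8%, where the median of all windows was 52.4%. No motifs overlapped, and these matches are a description of letters.

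Areg, Ereg, Epgn and Btc lie together on chromosome 5, within 375531 bases, and did not move together. Areg rose, Btc was lower in all 3 knockout libraries, and Epgn and Ereg were near the lower limit in both groups. The gene cluster of CXC chemokines lies just before them. Cxcl1, a chemokine gene 248 kb before the start of Areg, averaged 6.77 ± 0.591 FPKM in control libraries and 146 ± 11.8 FPKM in knockout libraries (SD, n = 3). Between it and the ligands, Mthfd2l, a gene of mitochondrial folate metabolism, measured 3.63 ± 0.175 and 3.34 ± 0.407 FPKM (SD, n = 3) and did not pass the test (adjusted p = 0.370, limma). Cxcl2 was at most 0.267 FPKM. On the far side, Rchy1, a ubiquitin ligase gene, fell with a log2 change of -0.29 by limma (adjusted p = 0.0256). Odaph averaged 1.41 ± 0.133 FPKM in control and 0.143 ± 0.0231 FPKM in knockout libraries (SD, n = 3) and was tested through its control libraries alone, so no test is given for it. Parm1 was at most 0.0543 FPKM. Of the 40 tested genes nearest to Areg, which spanned 19.5 megabases, 4 rose and 20 fell, with a median log2 change of -0.19. After subtraction of the median of these neighbours the log2 change of Areg was 0.51, with adjusted p = 0.000446 by limma. Around Egfr 6 of 40 rose and 12 fell (median -0.11), and around Erbb3 9 of 37 rose and 5 fell (median 0.05). Over all genes tested 16.9% rose and 18.7% fell.

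**Figure D4:**
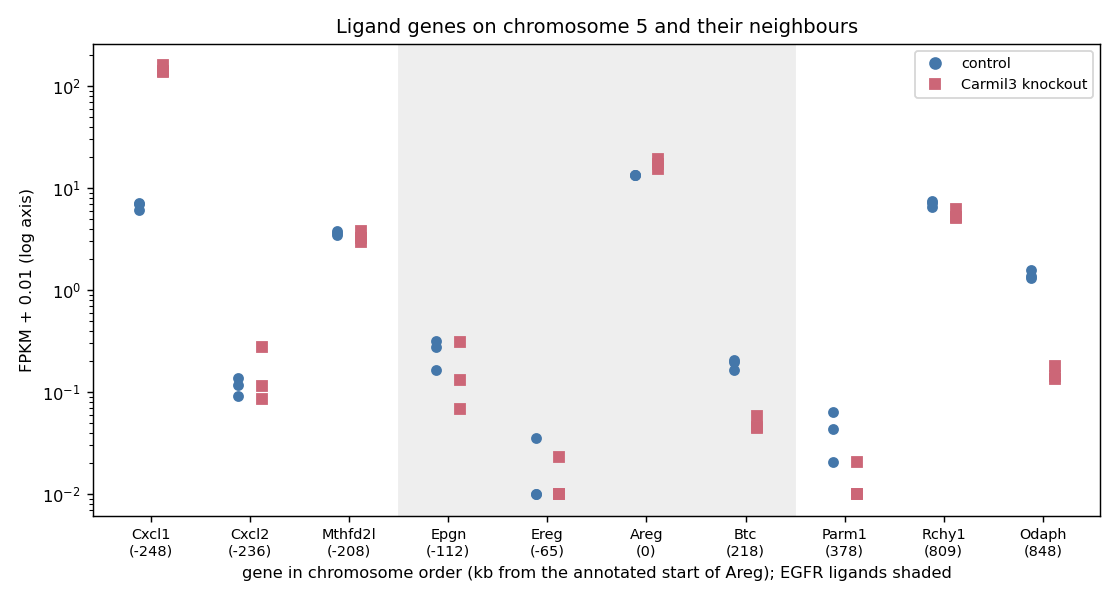
FPKM plus 0.01 on a log axis of the ligand genes on chromosome 5 (shaded) and the protein-coding genes listed next to them, in chromosome order with the distance in kb from the start of Areg in brackets. Circles are control libraries and squares are knockout libraries; Areg lies slightly higher and Btc lower in knockout cells, between Cxcl1, which is far higher, and Odaph, which is lower.

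Other ligands of the family were rare. Nrg2, which encodes a neuregulin, measured 0.482, 0.475 and 0.624 FPKM in control and 1.18, 1.35 and 1.29 FPKM in knockout libraries. Nrg1, another neuregulin gene, measured 0.813, 0.869 and 0.831 FPKM in control and 1.23, 1.15 and 1.21 FPKM in knockout libraries. For both genes every knockout library was above every control library. Both entered the test through their knockout libraries alone, so their calls are not used as support. The call of Nrg1 was in any case lost with the replicate block (adjusted p = 0.0561, limma) and with 5 of the 6 libraries left out in turn (adjusted p up to 0.0939, without control replicate 1). Egf, the gene of the ligand that names the family, was at most 0.0719 FPKM. Nrg4 was at most 0.281 FPKM, and the groups overlapped for both. Erbb4 and Nrg3 were sought by symbol and not found among the listed genes, so they were not analysed here. These genes were named after their values were seen.

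Several genes that release the ligands fell. Of 8 tested genes of ligand shedding 5 fell and 1 rose, where 18.7% of all genes tested fell and 16.9% rose, with a median log2 change of -0.22 where the median of all genes was -0.01. Rhbdf1 and Rhbdf2, which encode the iRhom partners of the sheddase ADAM17, fell from 14.6 ± 1.09 to 11.3 ± 1.24 FPKM and from 9.24 ± 1.11 to 7.09 ± 0.201 FPKM (SD, n = 3). Adam17, the main sheddase of TGF-alpha, amphiregulin and HB-EGF, measured 21.4 ± 0.746 and 20.5 ± 0.780 FPKM (SD, n = 3) and did not pass the test (adjusted p = 0.429, limma). Rhbdl2, a rhomboid protease gene, and Adam9 fell with log2 changes of -0.42 and -0.25. Adam10, the main sheddase of betacellulin, fell with a log2 change of -0.19, a call lost with adjusted p up to 0.103 when control replicate 1, control replicate 2 or knockout replicate 1 or 2 was left out. Adam15 was the member that rose, by 0.26, and its call was lost without control replicate 1 or 2 or knockout replicate 1 or 3. Adam12, named after its values were seen, was below the filter at 0.577 ± 0.0674 FPKM in control libraries and 0.0559 ± 0.00786 FPKM in knockout libraries (SD, n = 3), and the groups did not overlap.

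Adaptors and signalling enzymes below the receptors moved in both directions. The 28 tested members split into 4 that rose, 4 that fell and 20 that did not pass, and the median log2 change was 0.03. Their called share of 28.6% was below the 35.6% of all genes tested. The fallen members included 3 genes of PI3 kinase signalling, Pik3r2 (16.7 ± 0.823 to 9.58 ± 0.463 FPKM), Pik3cb (6.24 ± 0.215 to 3.74 ± 0.311 FPKM; SD, n = 3 for each) and the docking protein gene Gab1 (log2 change -0.50). Pik3ca, Pik3r1, Akt1 and Akt2, also genes of PI3 kinase signalling, did not pass (adjusted p of 0.0682 or more, limma). Akt1 was called lower with limma-voom (adjusted p = 0.0417). By limma it was also called lower with quantile normalization (adjusted p = 0.0170) and without control replicate 2 (adjusted p = 0.0363). In the other FPKM fits Akt1 did not pass. Mapk3, which encodes the kinase ERK1, rose from 35.8 ± 2.34 to 48.4 ± 0.329 FPKM, and Stat3 rose from 9.98 ± 0.947 to 13.4 ± 0.611 FPKM (SD, n = 3). Shc1, an adaptor gene, and Map2k1, the MEK1 gene, rose with log2 changes of 0.28 and 0.22, and Sos2 fell by 0.19. The calls of Map2k1 and Sos2 were lost without control replicate 1 or 2, that of Map2k1 also without knockout replicate 1, and that of Sos2 also without control replicate 3 or knockout replicate 2.

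Genes that attenuate the receptors or sort them for breakdown moved in both directions. The 21 tested members split into 9 that rose, 3 that fell and 9 that did not pass, where 16.9% of all genes tested rose and 18.7% fell, with a median log2 change of 0.15 that became 0.01 after subtraction of neighbours. Socs3 and Socs5, genes of suppressors of cytokine signalling, rose, Socs3 from 9.10 ± 0.834 to 18.5 ± 0.577 FPKM and Socs5 from 22.7 ± 0.481 to 39.3 ± 0.768 FPKM (SD, n = 3). Lrig1, which encodes a membrane protein that promotes the breakdown of ERBB receptors, rose from 40.4 ± 0.770 to 56.4 ± 1.72 FPKM (SD, n = 3). Ptprj, a receptor phosphatase gene, rose with a log2 change of 0.51. Ptprk, another receptor phosphatase gene, fell with a log2 change of -0.46, and Sh3kbp1, an endocytic adaptor gene, fell with -0.27. Ptpn2 fell with -0.22, a call lost without control replicate 1 or 2 or knockout replicate 1 or 2.

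Several transcripts that ERK signalling is known to induce rose. Of 15 tested members 9 rose and 2 fell, against the same shares of all genes, with a median log2 change of 0.26. Fosl1, an AP-1 subunit gene, rose from 54.4 ± 3.34 to 93.7 ± 0.846 FPKM, Dusp4, an ERK phosphatase gene, from 37.3 ± 1.96 to 65.6 ± 7.31 FPKM and Etv5, an ETS factor gene, from 16.1 ± 0.515 to 26.0 ± 1.66 FPKM (SD, n = 3 for each). Myc rose with a log2 change of 0.44. Spry4 and Spry1, which encode Sprouty feedback inhibitors, fell with log2 changes of -0.72 and -0.25, and the call of Spry1 was lost without knockout replicate 2. Over these 4 lists, without the other ligands, 23 of 72 tested genes rose and 14 fell, a called share of 51.4% where 35.6% of all genes tested were called. The lists were chosen with earlier results of these data known and were not tested as sets, so nothing is read from that excess. Of the list genes named with a call, Socs3 alone also passed the test against a 1.5-fold change. After subtraction of neighbours the calls of Rhbdf1, Adam15, Shc1, Sos2, Sh3kbp1 and Ptpn2 were lost, and without the filter those of Adam10, Adam15, Sos2 and Ptpn2.

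**Figure D5:**
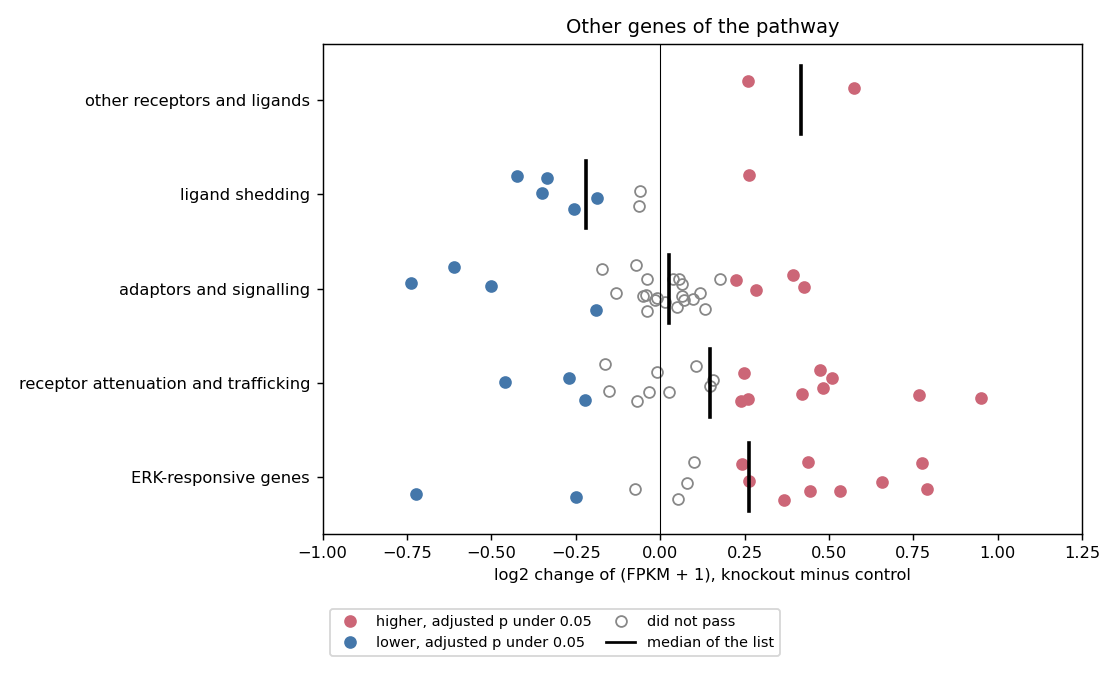
Log2 change of (FPKM + 1), knockout minus control (horizontal axis), of the tested genes of 5 lists of the EGF receptor pathway (rows; height within a row has no meaning). Filled points passed an adjusted p of 0.05 by limma, open points did not, and the bar is the median of each list, which is -0.22 for ligand shedding and 0.26 for ERK-responsive genes; the 2 tested other ligands entered through their knockout libraries alone, so their place and their bar are no result.

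Of the tested genes with a given name, those whose pattern over the 6 libraries was most like that of Tgfa were Pdgfra, Socs5 and Rassf2. Genes without a symbol or with a placeholder name, such as those ending in Rik, were left out. The measure was the root mean square difference of mean-centred log2(FPKM + 1), which was 0.0204 for Pdgfra, 0.0329 for Socs5 and 0.0388 for Rassf2. Pdgfra is the fibroblast marker whose values are given above. For Egfr the nearest were Pla2g4a, Ephb3 and Rnaseh2b, with differences of 0.0425, 0.0489 and 0.0495. Pla2g4a averaged 31.1 ± 0.787 FPKM in control and 19.2 ± 0.815 FPKM in knockout libraries. Rnaseh2b averaged 4.53 ± 0.116 FPKM in control and 2.54 ± 0.244 FPKM in knockout libraries (SD, n = 3 for each). Both changed by a smaller factor than Egfr, whose change this scale understates. Ephb3, an ephrin receptor gene, was close to Egfr in level too, at 1.07 ± 0.0593 FPKM in control libraries and 0.320 ± 0.0171 FPKM in knockout libraries (SD, n = 3). With 6 libraries in 2 groups this likeness mostly reflects the size of the difference between the groups on this scale, not the fold change.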

How the data were processed

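RNA sequencing of 3 control and 3 Carmil3 knockout libraries was deposited as 1 table of FPKM by the authors. The unit was read from the values. The submitters' processing notes name CASAVA, Bowtie, Bowtie2, TopHat, TopHat2 2.0.12, HTSeq 0.6.0 and the build mm10, with no roles. The sources used here give neither the strand setting nor the annotation release, so reads of overlapping antisense genes cannot be told apart; annotated exons of other genes cover at most 3.42% of any member's exon length. Symbols, positions and union exon lengths came from GENCODE M21 (GRCm38, the same assembly), and 23577 of 23644 rows matched.

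The main test was limma 3.58.1 (R 4.3.3), applied to log2(FPKM + 1) with a trended, robust eBayes step. It covered the 11171 genes that reached 1 FPKM in 3 or more libraries, and p-values were adjusted over all of these by Benjamini-Hochberg. The read totals used as library sizes were found from the products of FPKM and exon length, which are evenly spaced within a library; between 91.9% and 92.2% of values up to 500 reads were whole within 0.02 of a read, and 8 of the 9 members were whole in every library. limma-voom used these reads for genes that reached 10 reads in 3 or more libraries. Intervals are exact (Clopper-Pearson) at 95% and cover counting error only. The fits were run on simulated data with a fixed small spread and changes placed only in well-covered genes. That run does not check the calls of low genes. Python 3.11.15 and scipy 1.17.1 were also used. The members and lists were chosen with earlier results of these data known. Named genes were the 9 members, Carmil3, called list genes of at least 2 FPKM (the largest change and up to 3 more by adjusted p in each direction), the genes nearest in pattern and the neighbours on chromosome 5. Egf, Nrg1, Nrg2, Nrg4, Adam10, Adam12, Adam17, Pik3ca, Pik3r1, Akt1, Akt2 and the cell type markers lie outside this rule. They were named after their values were seen. Alternatives were other pseudocounts, filters, scalings and tests, a replicate block, each library left out, centring on the 20 tested genes on each side, and limma-voom, with each library left out of limma-voom added after the data were seen.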

Additional observations from a re-analysis of the deposited data

How the results depend on the processing

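Tgfa and Areg were called higher under each alternative to the FPKM fit except the test against a 1.5-fold change, and in limma-voom; over these FPKM fits the log2 change lay between 0.54 and 0.81 for Tgfa and between 0.28 and 0.51 for Areg. Tested against a 1.5-fold change, 0 members were called higher, 1 gene of the other lists was higher and 0 were lower, and of all genes 118 were higher and 193 lower. The count of members called lower was 0 in the FPKM fit, 3 without the filter and 3 with limma-voom, because fewer members are tested with the filter. With 1 library left out it lay between 0 and 3, with 0 in each FPKM fit and 3 in each limma-voom fit. Each limma-voom count of 3 includes Btc, which entered through its control libraries only. The call of Btc in limma-voom is not used as support. With 1 library left out, the genes called over the whole table lay between 1182 and 2041 higher and between 1358 and 2218 lower in the FPKM fit, and up to 2659 and 2794 in limma-voom, and those of the other lists between 18 and 31 higher and between 10 and 17 lower. Of the alternatives run, Hbegf passed with centring on neighbours alone. Replicate numbers are shared by the groups. With the replicate number as a block 2 members were called higher and 0 lower, and of all genes 1900 were higher and 2127 lower; of the calls among list genes the text names, that of Nrg1 was lost. Deviations of same-numbered libraries correlated at -0.06, 0.15 and 0.10 over 11171 genes, and not every library correlated best with its own number, so the numbers were not taken to pair the samples. Depth limits Ereg, Epgn and Btc, with at most 16 reads per library.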
